A study of Mus musculus with 12 samples.

Results

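The suppressors of cytokine signalling (SOCS) family was followed in the brain of R6/2 Huntington's disease (HD) mice. Its 8 members, Socs1 to Socs7 and Cish, were taken by gene symbol from the 23282 gene rows that every count table held. The family was followed whole, with earlier results of these data known, and Socs2 is the gene named in the title of the series. Each of the 8 symbols had its row, and all were followed whether or not they passed a filter on low counts. The question the design put to them was whether their RNA differed between HD mice before and after symptom onset, between HD mice and wild-type (WT) littermates, and between striatum and cortex.

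The R6/2 transgene is the start of human huntingtin, its first exon with a long CAG repeat, under the human huntingtin promoter. The mice express it widely and keep both of their own huntingtin alleles. The series held 12 libraries of bulk brain tissue, each from the striatum or the cortex. HD (R6/2) mice were sampled at 8 weeks, labelled pre-symptom, and at 13 weeks, labelled post-symptom, with 2 libraries for each age and region. WT (littermate) mice were sampled at the same ages with 1 library for each age and region, so no WT group had a replicate of its own. No other treatment was given in the labels. The labels did not say whether libraries of one group came from separate mice. The 2 libraries of each HD group differed in sex by their RNA (below), so they were not from 1 mouse. Nor did the labels say whether the striatum and cortex libraries with the same number came from one mouse. The p-values therefore measured only the spread between these libraries.

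Some SOCS proteins are inhibitors that a cytokine receptor induces against itself. Cytokines and growth hormone activate JAK kinases on their receptors, JAKs phosphorylate STAT transcription factors, and STATs switch on some SOCS genes. The SOCS protein then binds the receptor or the JAK through its SH2 domain, and its SOCS box recruits elongins and a cullin-based ubiquitin ligase that marks the bound protein for degradation. In the brain, Socs2 is known for limiting growth hormone signalling in developing neurons, and Socs3 for limiting the response of glia to the interleukin-6 family.

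Total counts per library lay between 8814386 and 12091201. Rn45s, the precursor of ribosomal RNA, made up 10.5% to 15.2% of counts in HD libraries (n = 8) and 4.32% to 5.62% in WT libraries (n = 4). These ranges did not overlap, so whatever set this share cannot be told apart from genotype in the contrasts of HD with WT. By Xist and the Y-linked gene Ddx3y, replicate 1 of every HD group was male and replicate 2 female, while the WT libraries were male at 8 weeks and female at 13 weeks. Levels are in CPM (counts-per-million), a gene's count scaled to the size of its library. The 6 cortical excitatory neuron markers summed to 1036 CPM or more in every cortex library and to 154 CPM or less in every striatum library, as the region labels say. Within the striatum they summed to 57.4 and 126 CPM in pre-symptomatic HD and 154 CPM in 8-week WT mice. At 13 weeks they summed to 19.5 and 19.3 CPM in post-symptomatic HD and 19.0 CPM in WT mice. Striatal contrasts between ages run along this difference, and its part in them was not tested. A pair of libraries stood furthest apart by their cell markers. In replicate 2 of the pre-symptomatic HD striatum, the 10 oligodendrocyte markers summed to 21310 CPM, against 3465 to 7538 in the other striatum libraries. The 4 thalamic markers in that library summed to 971 CPM, against 27.9 to 84.5 in the other striatum libraries. The 5 choroid plexus markers summed there to 954 CPM, against 14.6 to 125 in the other striatum libraries. In replicate 2 of the post-symptomatic HD cortex the choroid plexus markers summed to 3028 CPM, of which Ttr made up 2978, against 2.18 to 68.3 in the other cortex libraries. Both post-symptomatic HD striatum libraries were also higher in choroid plexus and thalamic markers, to a lesser degree. Their choroid plexus markers summed to 125 and 90.4 CPM. In replicate 1 of the pre-symptomatic HD striatum and the 13- and 8-week WT striatum these summed to 25.7, 17.4 and 14.6 CPM. Their thalamic markers summed to 84.5 and 79.0 CPM, against 40.3, 38.8 and 27.9 CPM in the same libraries. Fold changes without either library of the pair are given beside the contrasts that rest on it.

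Counts on the family came mostly from a single member. Socs7, which binds insulin receptor substrates, supplied 78.1% of all counts on SOCS genes. In these CPM levels each library's total was scaled by the TMM method of edgeR. The libraries count reads from the 3′ end of transcripts, so CPM values were not divided by transcript length. How well a 3′ end was captured may differ between genes, so the order of members is an order of counts. The mean over the 12 libraries was 286.3 CPM for Socs7, 34.6 CPM for Socs5 and 24.5 CPM for Socs2. Cish followed with a mean of 9.41 CPM, Socs6 with 8.31 CPM and Socs3 with 3.03 CPM. Socs1 and Socs4 were close to the detection floor, with means of 0.571 and 0.474 CPM and no more than 12 and 18 counts in any library. A low value at the 3′ end is not proof of a rare transcript, since Drd2, a dopamine receptor gene of striatal neurons, also stayed between 0 and 0.355 CPM in all 12 libraries.

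**Figure D1:**
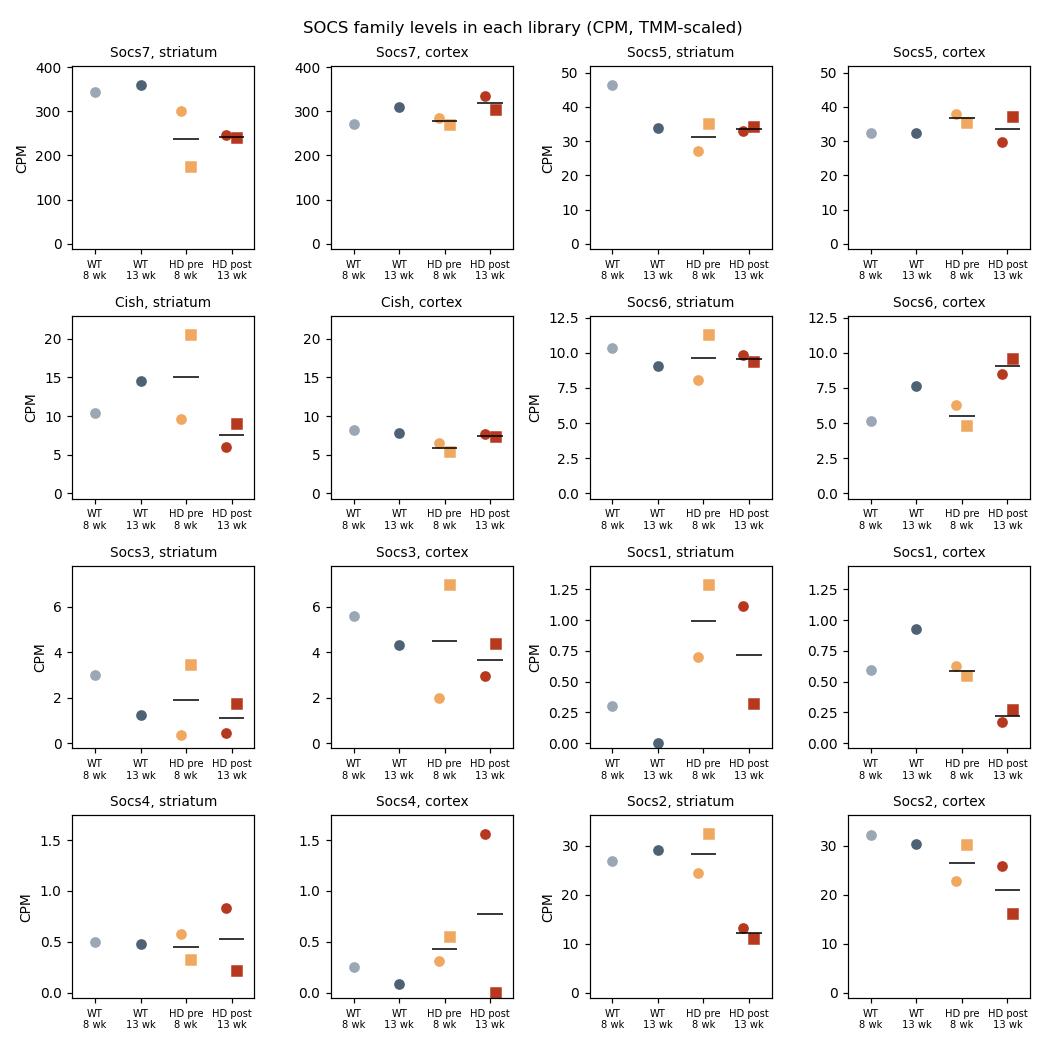
Level of each SOCS member in each library, in TMM-scaled CPM on a linear axis, with 1 panel per gene and region and the same axis range for both regions of a gene. Circles are replicate 1, squares are replicate 2 and bars are the mean of the 2 HD libraries. Socs7 lies between 174 and 359 CPM in all panels, whereas Socs1 and Socs4 never exceed 1.56 CPM, and Socs2 is lowest in the post-symptomatic HD striatum.

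The genes lie apart from each other in the mouse genome (build GRCm38, GENCODE annotation). Socs2 is on chromosome 10 at 95385362 to 95417180 on the minus strand with 14 annotated transcripts, and no other annotated gene overlaps it. Cish is on chromosome 9 at 107296026 to 107302784 on the plus strand. Socs3 at 117966079 to 117970047 on the minus strand and Socs7 at 97362551 to 97398542 on the plus strand share chromosome 11. Socs1 lies on chromosome 16, Socs4 on chromosome 14 and Socs5 on chromosome 17. The annotation places Gm17040 and Gm17041 on the opposite strand over Cish and 3 processed pseudogenes within Socs6. None of these 5 has a row in the tables. The strand setting of the counting is not given, so whether their reads were counted with Cish and Socs6 is not known.

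STAT proteins bind palindromic sites of the form TTCNNNGAA, which reads the same on both strands. RefSeq promoter windows of 300 bases, 250 before and 50 after the start (build GRCm38.p6), were at hand for 4 members, Socs1, Socs3, Socs4 and Cish. Those of Cish and Socs3 are shown because they hold such letters and because these members had the largest fitted differences between striatum and cortex. Matches to TTCNNNGAA are in capitals. The Cish window is chr9:107296409-107296708 on the plus strand and the Socs3 window chr11:117969317-117969616 on the minus strand.
Cish: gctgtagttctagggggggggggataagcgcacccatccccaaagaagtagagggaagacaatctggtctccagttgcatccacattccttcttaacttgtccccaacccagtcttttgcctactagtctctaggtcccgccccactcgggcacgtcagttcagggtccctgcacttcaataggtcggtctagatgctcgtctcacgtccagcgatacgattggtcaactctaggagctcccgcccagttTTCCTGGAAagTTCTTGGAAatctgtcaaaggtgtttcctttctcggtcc
Socs3: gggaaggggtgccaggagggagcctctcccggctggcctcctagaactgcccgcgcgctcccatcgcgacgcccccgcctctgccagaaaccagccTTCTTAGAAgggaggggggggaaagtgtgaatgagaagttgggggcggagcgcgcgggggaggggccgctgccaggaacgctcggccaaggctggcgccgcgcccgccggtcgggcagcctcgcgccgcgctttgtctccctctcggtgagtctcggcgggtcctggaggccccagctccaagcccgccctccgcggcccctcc

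The Cish window holds 2 matches, which begin 0 and 11 bases from the RefSeq start and lie 2 bases apart. The Socs3 window holds 1 match, which begins at -154. No match was found in the windows of Socs1 and Socs4. Of 32851 promoter windows, 8.3% hold at least 1 match and 0.457% hold 2 or more. The last bases of the Socs3 window, after the RefSeq start, were not found in a GENCODE transcript of Socs3, so that start was not matched to one. The Cish and Socs3 windows both lie wholly within the GENCODE spans of their genes. None of the matches thus lies upstream of the outermost annotated start of its gene. A match describes letters in the window and was not tested for binding.

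Socs2, which limits growth hormone receptor signalling, was lowest in the striatum of post-symptomatic HD mice. It was 13.3 and 10.9 CPM in the 2 post-symptomatic HD striatum libraries, from 143 and 102 counts. In the other 4 striatum libraries it was 24.3 and 32.3 CPM in pre-symptomatic HD mice, 26.9 CPM in 8-week WT and 29.0 CPM in 13-week WT mice. Both post-symptomatic HD values thus lay below every other striatum library. The higher of them, with a 95% Poisson interval of 11.2 to 15.7 CPM for counting error, did not reach the lowest of the others, whose interval was 21.1 to 27.8 CPM. The mean of 12.1 ± 1.67 CPM (SD, n = 2) was 0.428 of the pre-symptomatic HD mean of 28.3 ± 5.63 CPM (SD, n = 2) and 0.418 of the 13-week WT value.

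The cortex showed less. Socs2 was 25.8 and 16.0 CPM in the post-symptomatic HD cortex, 22.8 and 30.0 CPM in the pre-symptomatic HD cortex, and 32.2 and 30.3 CPM in the WT cortex at 8 and 13 weeks. The post- and pre-symptomatic HD ranges overlapped, and all 4 HD values lay under both WT values, at the closest by 30.0 against 30.3 CPM. The share of all genes with that pattern was not counted. Over the 8 groups the order of the means ran from 32.2 CPM in the 8-week WT cortex, through the 13-week WT cortex, the 13-week WT striatum, the pre-symptomatic HD striatum, the 8-week WT striatum, the pre-symptomatic HD cortex and the post-symptomatic HD cortex, to 12.1 CPM in the post-symptomatic HD striatum. The first 3 places were single WT libraries, neighbours from the third place to the seventh had overlapping ranges, and the post-symptomatic HD striatum was apart from the group above it.

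**Figure D2:**
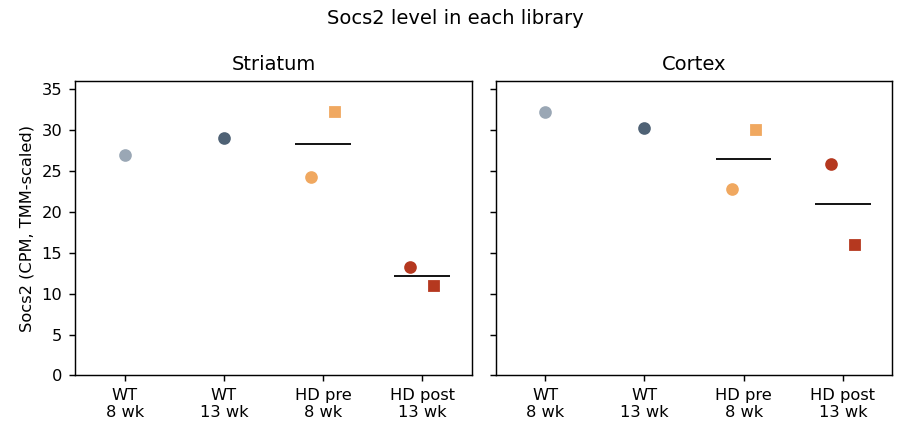
Socs2 in each of the 12 libraries, in TMM-scaled CPM on a linear axis from 0, by genotype and age in the striatum and the cortex. Circles are replicate 1, squares are replicate 2 and bars are the mean of 2 libraries. The post-symptomatic HD striatum libraries, at 13.3 and 10.9 CPM, sit under the lowest other library of either region, at 16.0 CPM in the post-symptomatic HD cortex.

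With all libraries Socs2 did not pass the edgeR test in any comparison, while DESeq2 called it in some. Over the 8 HD libraries with region in the model, the post- minus pre-symptomatic log2 fold change was -0.77 ± 0.24 (SE), with an adjusted p of 0.0903 in edgeR's quasi-likelihood test, where 6.45% of 13944 genes passed. DESeq2 put the same contrast at -0.79 with an adjusted p of 0.0323, and there 12% of genes passed. Within the striatum the edgeR log2 fold change was -1.20 ± 0.30 with an adjusted p of 0.150 (0.16% of genes passed), and by DESeq2 it was -1.23 with an adjusted p of 0.0231 (3.23% of genes passed). Within the cortex it was -0.36 ± 0.29, with a 95% interval of -1.02 to 0.31 and an edgeR adjusted p of 0.648. That value depended on single libraries, being -0.74 and -0.06 without replicates 1 and 2 of the post-symptomatic HD cortex and -0.54 and -0.15 without replicates 1 and 2 of the pre-symptomatic HD cortex. The change in the striatum minus that in the cortex was -0.84, with an interval of -1.79 to 0.11 and an edgeR adjusted p of 1.0, so the regions were not shown to differ. With single libraries left out it lay between -1.14, without replicate 2 of the post-symptomatic HD cortex, and -0.46, without replicate 1.

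The contrasts with WT did not pass in edgeR at either age. At 13 weeks the log2 fold change of HD over WT was -0.88 ± 0.26, with an edgeR adjusted p of 0.0643 and a DESeq2 adjusted p of 0.0273. At 8 weeks it was -0.09 ± 0.27, with a 95% interval of -0.67 to 0.49. Over both ages it was -0.49 ± 0.19, with an edgeR adjusted p of 0.120. The age change in HD minus that in WT, which tests whether these differ, was -0.78 with an interval of -1.61 to 0.04 and an edgeR adjusted p of 0.592. By region at 13 weeks the log2 fold change was -1.26 ± 0.34 in the striatum and -0.55 ± 0.34 in the cortex, with edgeR adjusted p-values of 0.130 and 0.607. The cortex value was -0.93 without replicate 1 and -0.24 without replicate 2 of the post-symptomatic HD cortex. Between the WT ages Socs2 differed by 0.01 on the log2 scale, with an interval of -0.66 to 0.68. The WT libraries were male at 8 weeks and female at 13 weeks, so WT age and sex cannot be told apart. The same holds for the age change in HD minus that in WT. Each of these fits assumes that a WT library varies like an HD library.

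An exact permutation test of Socs2 alone, two-sided and within region, gave p = 0.111 for stage in HD mice, where the smallest p that 36 arrangements allow is 0.0556. For genotype within region and age the exact permutation p was 0.0741 over 81 arrangements, the smallest possible being 0.0123. Without replicate 2 of the pre-symptomatic HD striatum, the library with high oligodendrocyte and thalamic markers, the edgeR log2 fold change of Socs2 was -0.60 for stage over both regions and -1.0 for stage in the striatum, with adjusted p-values of 0.112 and 0.0782. The 13-week contrast with WT was -0.89 without it, with an adjusted p of 0.0250, and the overall contrast of HD with WT was -0.57, with an adjusted p of 0.0431. Without replicate 1 of the same group, the striatal stage contrast was -1.40 with an adjusted p of 0.0157. Without replicate 1 of the post-symptomatic HD cortex, which held the highest Socs2 value of that stage, the 13-week contrast was -1.13 with an adjusted p of 0.0211 and the overall contrast -0.62 with an adjusted p of 0.0315. Without replicate 2 of that group, the library with high choroid plexus markers, Socs2 was at -0.71 for stage, -0.83 for the 13-week contrast and -0.46 for the overall contrast, with edgeR adjusted p-values of 0.223, 0.131 and 0.180.

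Some sums of cell markers were lower in the post-symptomatic HD striatum, as Socs2 was, and others were not. The 9 striatal projection neuron markers summed to 1382 and 1414 CPM in the post-symptomatic HD striatum, against 7285 and 2300 CPM in the pre-symptomatic HD striatum and 7117 and 7741 CPM in WT striatum. Of those markers Drd2 alone was at 0 in any striatum library. The 9 astrocyte markers summed to 3106 and 3529 CPM in the post-symptomatic HD striatum, against 4525 and 5063 CPM in the pre-symptomatic HD striatum and 3810 and 3841 CPM in WT, with no marker at 0. Of these, Slc1a2 was 1220 and 1362 CPM there, against 1828 to 2552 CPM in the other striatum libraries. Gfap was 24.5 and 109 CPM there, 11.2 and 138 CPM in the pre-symptomatic HD striatum and 6.49 and 8.24 CPM in WT. The oligodendrocyte markers summed to 4510 and 7538 CPM there, against 3465 to 21310 CPM in the other striatum libraries. Thalamic and choroid plexus sums there were above those of both WT striatum libraries. In replicate 2 of the pre-symptomatic HD striatum, where striatal neuron markers were at 2300 CPM, Socs2 was at 32.3 CPM, the highest of the 12 libraries. Fewer cells of a type and less RNA per cell cannot be told apart in whole tissue, and the part of cell composition in the Socs2 level was not tested.

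Cish, which blocks STAT5 docking sites on cytokine receptors, was the other member below the range. It was 6.04 and 9.0 CPM in the post-symptomatic HD striatum, 9.66 and 20.5 CPM in the pre-symptomatic HD striatum, and 10.5 and 14.5 CPM in the WT striatum at 8 and 13 weeks. Both post-symptomatic values were again below all 4 other striatum libraries, although 9.0 and 9.66 CPM lay within each other's counting intervals. Socs2 and Cish were 2 of the 8 members with that pattern, while 12.6% of 15337 tested genes had it, and no member lay above the range, as 10.2% of genes did. In the cortex Cish was 7.69 and 7.27 CPM in post-symptomatic HD mice, 6.48 and 5.33 CPM in pre-symptomatic HD mice, and 8.23 and 7.78 CPM in WT at 8 and 13 weeks. There the post-symptomatic HD values were the higher of the HD pair of stages, and both WT values were higher still. The share of all genes with that order was not counted.

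The stage change of Cish in HD mice was -0.98 on the log2 scale in the striatum (edgeR adjusted p = 0.364) and 0.32 in the cortex (adjusted p = 0.793). The difference between those changes was -1.30, with a 95% interval of -2.63 to 0.02. Without replicate 1 of the pre-symptomatic HD striatum, the striatal change was -1.44 with an edgeR adjusted p of 0.0347, a value that then rests on the library with the high oligodendrocyte and thalamic markers, where Cish was 20.5 CPM. Without that other library the striatal change was -0.36 (edgeR adjusted p = 0.709), the difference between the regions -0.71, and the change over both regions 0.05, opposite in sign to the -0.35 of all 8 HD libraries. Against WT at 13 weeks the striatal difference was -0.95 with an edgeR adjusted p of 0.400.

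Socs3 and Socs1, the members that directly inhibit JAK kinases and that STAT3 and interferon signalling induce, were low throughout. Socs3 was 0.46 and 1.71 CPM in the post-symptomatic HD striatum, 0.35 and 3.43 CPM in the pre-symptomatic HD striatum, and 3.01 and 1.24 CPM in the WT striatum at 8 and 13 weeks. In the cortex it was 2.94 and 4.35 CPM in post-symptomatic HD mice, 1.99 and 6.96 CPM in pre-symptomatic HD mice, and 5.60 and 4.31 CPM in WT. In every group with 2 libraries, replicate 2 was the higher, with the largest ratio in the pre-symptomatic striatum at 32 counts against 3. The HD stages overlapped in both regions, and the stage change over both regions was -0.53 with an interval of -2.05 to 0.99 and an edgeR adjusted p of 0.700. Without replicate 2 of the pre-symptomatic HD striatum that change was 0.19, of the opposite sign.

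Socs1 was counted 12 and 3 times in the post-symptomatic HD striatum, 6 and 12 times in the pre-symptomatic HD striatum, 3 times in the 8-week WT striatum and 0 times in the 13-week WT striatum. In the cortex it was counted 2 and 3 times in post-symptomatic HD mice, 6 and 5 times in pre-symptomatic HD mice, and 7 and 11 times in WT at 8 and 13 weeks. Socs4 was counted 9 and 2 times in the post-symptomatic HD striatum, 5 and 3 times in the pre-symptomatic HD striatum and 5 times in each WT striatum library. In the cortex Socs4 was counted 18 and 0 times in post-symptomatic HD mice, 3 and 5 times in pre-symptomatic HD mice, and 3 and 1 times in WT. In the cortex the post-symptomatic HD values of Socs1, 0.173 and 0.266 CPM, lay below the pre-symptomatic ones of 0.627 and 0.544 CPM, but their counting intervals overlapped, reaching up to 0.778 and down to 0.177 CPM. No difference in either gene passed the test where the gene could be tested.

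Socs7 was highest in the WT striatum. It was 343.0 CPM in the 8-week and 358.8 CPM in the 13-week WT striatum, 301.8 and 174.2 CPM in the pre-symptomatic HD striatum, and 245.7 and 239.4 CPM in the post-symptomatic HD striatum. All 4 HD values were thus below both WT values in that region, a pattern whose share over all genes was not counted. In the cortex it was 271.6 and 310.4 CPM in WT at 8 and 13 weeks, 284.7 and 269.7 CPM in pre-symptomatic HD mice, and 334.5 and 302.2 CPM in post-symptomatic HD mice, where HD and WT overlapped. The lowest value, 174.2 CPM, was in the library with the high oligodendrocyte markers.

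The striatal log2 fold change of Socs7 in HD over WT was -0.52 ± 0.28 at 8 weeks and -0.57 ± 0.28 at 13 weeks, with edgeR adjusted p-values of 0.522 and 0.401. Without replicate 2 of the pre-symptomatic HD striatum the 13-week value was -0.57 with an adjusted p of 0.0293, and the 8-week value, which then rests on replicate 1 at 301.8 CPM, was -0.18 with an adjusted p of 0.781. Without replicate 1 of that group the 8-week value was -0.97 with an adjusted p of 0.00288, resting on the library with the high oligodendrocyte and thalamic markers. Over both regions and ages the difference between HD and WT was -0.27 with an edgeR adjusted p of 0.295. The stage change in HD mice was 0.12, with a 95% interval of -0.22 to 0.46.

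Socs5, an inhibitor of interleukin-4 and epidermal growth factor receptor signalling, varied little. It was 33.1 and 34.2 CPM in the post-symptomatic HD striatum, 27.2 and 35.2 CPM in the pre-symptomatic HD striatum, and 46.3 and 33.8 CPM in the WT striatum at 8 and 13 weeks. In the cortex it was 29.8 and 37.2 CPM in post-symptomatic HD mice, 38.1 and 35.3 CPM in pre-symptomatic HD mice, and 32.5 CPM in both WT libraries. The 8-week WT striatum was the single high value, and the striatal difference of HD from it was -0.56 on the log2 scale with an edgeR adjusted p of 0.427. The stage change in HD mice was -0.01, with a 95% interval of -0.34 to 0.32, and its sign depended on the scaling of the libraries.

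Socs6, on chromosome 18 at 88665224 to 88927481 on the minus strand, binds insulin and Kit receptor complexes. It was 9.85 and 9.32 CPM in the post-symptomatic HD striatum, 8.03 and 11.3 CPM in the pre-symptomatic HD striatum, and 10.4 and 9.06 CPM in the WT striatum at 8 and 13 weeks. In the cortex it was 8.47 and 9.58 CPM in post-symptomatic HD mice, 6.27 and 4.79 CPM in pre-symptomatic HD mice, and 5.18 and 7.61 CPM in WT at 8 and 13 weeks. The striatal groups overlapped. In the cortex both 13-week groups lay above both 8-week groups, an order whose share over all genes was not counted. The stage change in the HD cortex was 0.69 with a 95% interval of -0.06 to 1.43 and an edgeR adjusted p of 0.391, and over both regions it was 0.35 with an adjusted p of 0.445.

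No member passed in any of 16 comparisons by edgeR, with p-values adjusted over all genes by the Benjamini-Hochberg method. For stage in HD mice, 6 members were tested, 1 had an unadjusted p under 0.05, as 22.6% of all genes did, and 4 had a fold change below 0, with a median of -0.18 against 0.00 over all genes. For HD against WT, 7 members were tested and 1 had an unadjusted p under 0.05, as did 25.9% of all genes, while 10.7% of genes passed after adjustment. At 13 weeks it was 1 of 7 members against 22.3% of all genes, and at 8 weeks 0 of 7 against 13.9%, with 7.36% and 2.1% of genes passing after adjustment. The member was Socs2 in each case, and these shares of members were below those of all genes. DESeq2 called 1 of the members, Socs2, for stage in HD mice and 1, again Socs2, for HD against WT at 13 weeks, where it called 12.8% of all genes. For the WT ages and for the age change in HD minus that in WT, 0 of 7 members had an unadjusted p under 0.05, against 1.82% and 8.92% of all genes, and 0.0136% and 0.116% of genes passed after adjustment.

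In the fits by region, 2 of 7 members, Socs2 and Cish, had an unadjusted p under 0.05 for stage in the HD striatum, against 13% of all genes, and 0 of 7 in the HD cortex, against 14.3%, where 0.591% of genes passed after adjustment. For HD against WT in the striatum at 13 weeks, 2 of 8 had an unadjusted p under 0.05, Socs2 and Socs1, as did 14.5% of all genes, and 0.724% of genes passed after adjustment. Socs1 was at 0 counts in that WT library, so its fitted value depends on the prior count. The shares of genes that passed after adjustment were 0.228% for HD against WT in the striatum at 8 weeks, 0.111% in the cortex at 13 weeks and 0% in the cortex at 8 weeks, with 0 of 8 members under an unadjusted p of 0.05 in each, against 11.7%, 11.6% and 8.08% of all genes. Tests of the difference between regions passed 0% of genes for the stage change and 0% for the contrast with WT at either age. Socs1 alone, for the 13-week contrast, had an unadjusted p under 0.05, where 3.03% of all genes did, against 3.61% for the stage change and 5.64% for the 8-week contrast.

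**Figure D3:**
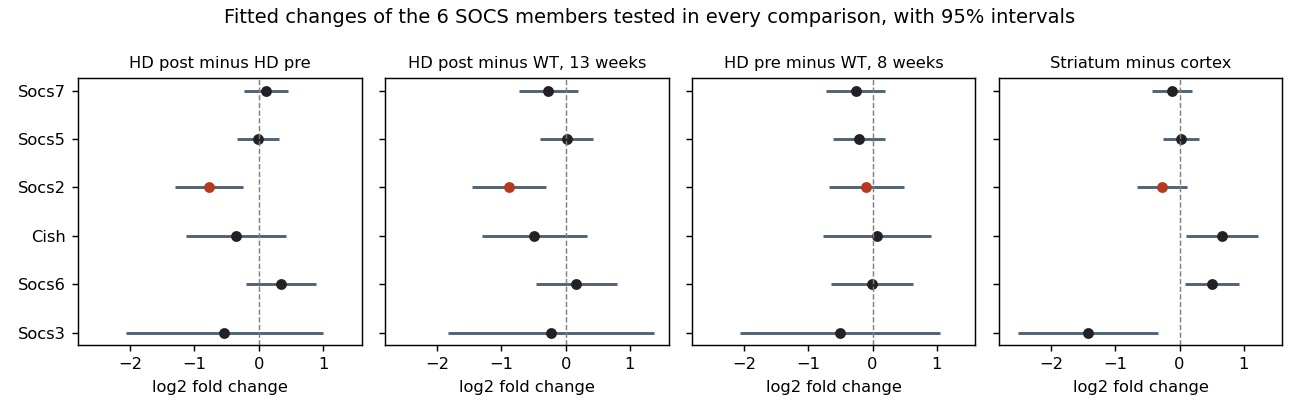
Fitted log2 fold changes (points) with 95% intervals (lines) from edgeR for 6 SOCS members in 4 comparisons, with Socs2 in red and a dashed line at 0. Socs2 has intervals below 0 for HD stage and for HD against WT at 13 weeks, at -0.77 and -0.88, and an interval across 0 at 8 weeks. Socs3 has the widest intervals, and no value passed the adjusted test.

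Socs3, Cish and Socs6 were the 3 of 7 members with an unadjusted p under 0.05 between striatum and cortex, where 33.4% of all genes had one. Socs3 averaged 1.70 ± 1.29 CPM in the striatum and 4.36 ± 1.79 CPM in the cortex (SD, n = 6 libraries each). In each of the 6 pairs of libraries with the same group and number, Socs3 was higher in the cortex (share of all genes not counted). Its log2 fold change of striatum over cortex was -1.42 ± 0.50, with an edgeR adjusted p of 0.0643 and a DESeq2 adjusted p of 0.0264. Without replicate 2 of the pre-symptomatic HD striatum it was -1.86 with an edgeR adjusted p of 0.0127. With the replicate number as a block, which in the HD groups is also sex, it was -1.56 with an edgeR adjusted p of 0.00858.

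Cish averaged 11.7 ± 5.10 CPM in the striatum and 7.13 ± 1.06 CPM in the cortex (SD, n = 6 each), which was 0.66 on the log2 scale (edgeR adjusted p = 0.0937). Without replicate 1 of the post-symptomatic HD striatum it was 0.81 with an adjusted p of 0.0493, and without replicate 2 of the pre-symptomatic HD striatum 0.42 with an adjusted p of 0.153. Socs6 averaged 9.65 ± 1.11 CPM in the striatum and 6.98 ± 1.89 CPM in the cortex (SD, n = 6 each), which was 0.50 on the log2 scale (edgeR adjusted p = 0.0898). The ranges of both genes overlapped between the regions. Socs2 and Socs5 differed between the regions by -0.27 and 0.02 on the log2 scale, with intervals of -0.66 to 0.12 and -0.25 to 0.30. After adjustment 20.6% of genes passed between striatum and cortex by edgeR and 25.7% by DESeq2, which called 1 member, Socs3.

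The pathway that SOCS proteins restrain was read from 11 further gene lists. None of the 4 JAK kinases and none of the 7 STAT factors passed for stage in HD mice or for HD against WT at either age or over both, nor did any of the 8 receptor kinases bound by SOCS proteins or the 3 of 8 ligands of the gp130 family that could be tested. Medians for stage in HD mice were -0.01 for JAK kinases and 0.21 for STAT factors, against 0.00 over all genes. Of the 6 gp130 family receptors, 0 passed over both regions, and Il11ra1, the interleukin-11 receptor, was at -1.08 on the log2 scale for stage in the HD cortex (edgeR adjusted p = 0.0366), a call lost when any of 6 of the 8 HD libraries was left out (adjusted p up to 0.402).

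The growth hormone and insulin-like growth factor (IGF) axis, the pathway Socs2 acts on, had 2 of 12 tested genes lower with stage in HD mice, where 4.53% of all genes passed as lower, and none higher. These were Igfbp5 and Igfbp4, which bind IGFs outside cells, with log2 fold changes of -1.29 and -1.51 and edgeR adjusted p-values of 0.00944 and 0.0377. The call on Igfbp4 was lost when any of 6 of the 8 HD libraries was left out (adjusted p up to 0.123), and that on Igfbp5 in no setting. Igfbp4 was 15.0 and 10.8 CPM in the post-symptomatic and 77.7 and 34.6 CPM in the pre-symptomatic HD striatum, and 76.5 and 81.8 CPM in WT striatum. Against WT over both ages, 2 of 12 were higher in HD, where 6.18% of all genes passed as higher, and none lower. Irs2, an adaptor of the insulin and IGF receptors, was 2.22 higher on the log2 scale (edgeR adjusted p = 0.000356), with 13.5 to 27.9 CPM in the 8 HD libraries and 2.31 to 6.09 CPM in the 4 WT libraries. It also passed at 13 and 8 weeks, at 1.63 and 2.81, calls lost without the WT striatum library of that age (edgeR adjusted p = 0.253 and 0.107). Igf1r, the IGF receptor itself, was 0.60 higher (edgeR adjusted p = 0.00663, and 0.0586 without the 13-week WT striatum library). Ghr, the growth hormone receptor, did not pass and stood at 2.93 to 7.94 CPM.

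Interferon response genes had 2 of 16 tested members higher with stage in HD mice, where 1.93% of all genes passed as higher, namely Irf9 and Ifit3, by 1.01 and 1.09 on the log2 scale (edgeR adjusted p = 0.0343 and 0.0420). Each call was lost when any of 5 of the 8 HD libraries was left out, with adjusted p up to 0.125 for Irf9 and 0.140 for Ifit3. Against WT over both ages 4 of 17 were higher, against 6.18% of all genes, namely H2-K1, H2-D1, B2m and Oasl2, by 0.99 to 1.97. The call on H2-K1 held in every setting, while those on H2-D1, B2m and Oasl2 were lost without any 1 of the 4 WT libraries, with adjusted p up to 0.131, 0.170 and 0.159. The calls on B2m and Oasl2 were also lost without any of 2 and of 5 HD libraries. At 13 weeks H2-D1 and H2-K1 passed at 1.38 and 1.30, and at 8 weeks H2-K1 at 1.67, calls that were each lost without any of at least 8 of the 12 libraries (edgeR adjusted p up to 0.421). No interferon response gene passed as lower in either comparison, and the list's median was 0.70 for stage and 0.67 against WT. The 12 STAT3 targets gave 0 of 8 tested genes for stage and 1 of 9 against WT, Junb, an immediate early gene, which was at -1.27 (edgeR adjusted p = 0.0279, and up to 0.143 without a WT library, with the call also lost without either of 2 HD libraries). Gfap in that list is also an astrocyte marker.

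Among the SOCS box ligase partners, 0 of 8 tested genes passed for stage. Against WT, Cul5, the cullin of the SOCS box ligase, was at 0.41 and Nedd8, the modifier that activates cullins, at -0.39 on the log2 scale (edgeR adjusted p = 0.0165 and 0.0147). Both calls rest on the WT libraries, since that on Cul5 was lost without any 1 of the 4 (adjusted p up to 0.113) and that on Nedd8 without any but the 8-week striatum (up to 0.0845). Of 12 other JAK-STAT inhibitors, 0 passed for stage and 2 were higher against WT, where 6.18% of all genes were. They were Cbl, a ubiquitin ligase for receptor kinases, and Ptpn11, a tyrosine phosphatase, by 1.25 and 0.52 (edgeR adjusted p = 0.000365 and 0.00880). The call on Ptpn11 was lost without the 13-week WT striatum library (adjusted p = 0.0825), and that on Cbl in no setting. Cbl also passed at 13 and 8 weeks, at 0.95 and 1.56, and Ptpn11 at 13 weeks, at 0.55, and each of these calls was lost without the WT striatum library of that age (edgeR adjusted p = 0.265, 0.107 and 0.459), and those at 13 weeks also without the WT cortex library (up to 0.159). With the replicate block Ptpn11 at 13 weeks had an adjusted p of 0.0971. In the striatum alone at 8 weeks, Irs2 and Cbl passed at 3.35 and 1.88, each with an adjusted p of 0.0686 under the replicate block. With the voom fit their adjusted p-values were 0.104 and 0.0604. Each of these 8-week striatal calls was also lost when any of 6 HD libraries was left out. Of the other cytokine receptors, 0 of 13 tested passed for stage and 1 of 14, Epor, the erythropoietin receptor, was lower in HD than in WT, at -1.56 (edgeR adjusted p = 0.00317), where 4.51% of all genes passed as lower. At 13 weeks it was at -1.95, a call lost without either 13-week WT library (adjusted p up to 0.201).

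Between the regions 12.1% of all genes passed as lower and 8.51% as higher in the striatum. Jak1 and Stat4, 1 of 4 JAK kinases and 1 of 7 STAT factors, were lower in the striatum, at -0.41 and -2.41 on the log2 scale (edgeR adjusted p = 0.00291 and 0.00871). Of the growth hormone and IGF axis, 5 of 12 genes were lower in the striatum and none higher, with Igfbp6, Igfbp2, Igfbp4 and Igf2 at -3.06, -1.75, -1.15 and -0.98. Of 14 other cytokine receptors, Ifngr2, an interferon gamma receptor chain, was at -1.0, Il4ra, the interleukin-4 receptor, at -0.79 and Csf2ra, a GM-CSF receptor chain, at 0.63. Of 12 other JAK-STAT inhibitors, Cbl and Ptpn11 were higher in the striatum, at 0.45 and 0.38, and Pias3, an inhibitor of STAT3, lower, at -0.76. Met, a receptor kinase, was at -3.31, and Irf1, 1 of 17 interferon response genes, at -0.67. The calls on Cbl, Csf2ra, Il4ra, Irf1, Igfbp4 and Igf2 were lost when certain single libraries were left out (edgeR adjusted p up to 0.0614, 0.0926, 0.0613, 0.0593, 0.0740 and 0.106), and those on Jak1, Stat4, Igfbp6, Igfbp2, Ifngr2, Pias3, Ptpn11 and Met in no setting.

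The genes whose levels ran most like those of Socs2 were sought by Pearson's correlation of log2 CPM over the 12 libraries, after the mean of each region was removed, among 10776 genes of at least 5 CPM on average. They were Crtac1 (r = 0.96), Slc38a10 (0.95), Alkbh7 (0.94), Pkd2l2 (0.94) and Mmd2 (0.93). Crtac1 was 15.4 and 16.6 CPM in the post-symptomatic HD striatum and 29.0 to 38.6 CPM in the other 4 striatum libraries. For Socs7 they included Ehbp1l1 (0.96), Syt4 (0.96), Map1s (0.94) and Cnot6 (0.94), all of which were lowest among the striatum libraries in the one with high oligodendrocyte markers. Among the members, the correlation of Socs2 with Cish was 0.63, and with Socs5, Socs6 and Socs7 it lay between -0.26 and 0.09. Socs2 and Cish were both highest in replicate 2 of the pre-symptomatic HD striatum, at 32.3 and 20.5 CPM. No correlation was computed without that library. The points share libraries and scaling, and the values describe these 12 libraries only.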

How the data were processed

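For every library the authors deposited a table that pairs gene symbols with raw read counts. Libraries were made from total RNA with a 3′ end kit (Lexogen QuantSeq) per the labels. The submitters' processing notes name Bowtie2, bedtools and the mm10 build, while settings, annotation and strand are not given in the sources used here. Of 23282 rows, 4306 had no count and 44 repeated an earlier symbol and were kept as separate rows.

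Members and gene lists were chosen with earlier results of these data known. All 8 members were named, and of each list genes past the test, at most 4 a list and comparison by size of change, for stage in HD mice, HD against WT and striatum against cortex. Drd2 and Ghr were named after their values were seen. One gene that the rule for likeness to Socs7 names is not reported here. Counts were tested in R 4.3.3 with edgeR 4.0.16 (quasi-likelihood test, robust, after TMM scaling and filterByExpr at its minimum count of 10, Benjamini-Hochberg adjustment over all genes tested, threshold 0.05). Stage was fitted over the 8 HD libraries, and contrasts with WT, between ages and between regions over all 12, with region as a covariate or a mean per group. Socs2 log2 CPM (prior count 2) was also tested by exact permutation. DESeq2 1.42.0 and limma 3.58.1 (voom) were alternatives, beside other normalizations, filters, a replicate block, a sex term, Rn45s left out and each library left out. Total-count scaling, the region difference of HD from WT and the count of genes outside the striatal range were added after the data were seen. The fits were checked on simulated data. Intervals of 95% on counts are Poisson and cover counting error only, as reads without molecular identifiers are not independent molecules. A count of 0 allows up to 3 counts.

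No HD group held replicates that agreed within counting noise (chi-square divided by its degrees of freedom, 6.91 to 72.9), so each library was counted as its own sample. Promoter windows are RefSeq's (GRCm38.p6), with entries used for 4 of the 8 members.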

Additional observations from a re-analysis of the deposited data

How the results depend on the processing

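Over 30 fold changes of SOCS members under up to 21 alternatives, 534 of 570 values kept their direction and side of the threshold, 22 passed the adjusted threshold that the edgeR value had missed, and 14 changed sign. By DESeq2, 1 member was called for stage in HD mice (Socs2, -0.79), for HD against WT at 13 weeks (Socs2, -0.89), for stage in the HD striatum (Socs2) and between regions (Socs3). The voom fit with a random block for libraries of one age, genotype and number, taken as one mouse although the labels do not say so, called 1 member for HD against WT at 13 weeks (Socs2, -0.88) and 1 between regions (Socs3). The replicate block and the sex term each called 1 member, Socs3, between regions, and changed no other call on a member. They removed the calls on Ifit3 for stage (adjusted p = 0.0502 with either), and the replicate block those on B2m, Oasl2, Nedd8 and Junb against WT (adjusted p = 0.0869, 0.113, 0.0600 and 0.088) and on Ptpn11 at 13 weeks (0.0971), and either removed those on Irs2 and Cbl in the striatum at 8 weeks (0.0686). The sex term kept the calls on B2m, Oasl2, Nedd8, Junb and Ptpn11. All WT libraries carry the number 1, so the replicate block set WT against the level of HD replicate 1. The labels do not say that a number marks a shared mouse or batch. Same-numbered HD libraries share their sex, so that number and sex cannot be told apart within the HD libraries. Deviations of same-numbered libraries correlated at 0.0163 to 0.208, above 0.1 for 3 of 6 pairs of groups. When single libraries were left out, 0 to 1 member was called for HD against WT, for HD against WT at 13 weeks, between regions and for HD against WT in the striatum at 8 weeks, and 0 to 2 for stage and for HD against WT at 13 weeks in the striatum. Socs2 then ranged from -0.62 to -0.42 for HD against WT and from -1.13 to -0.73 at 13 weeks, and it crossed 0 at 8 weeks (-0.25 to 0.040) and between WT ages (-0.12 to 0.13, and -0.00058 with voom). Stage in HD mice crossed 0 for Cish (-0.55 to 0.053), Socs3 (-0.87 to 0.19), Socs7 (-0.0060 to 0.30) and Socs5 (-0.11 to 0.084), and the region contrast for Socs5 (-0.077 to 0.099). Socs5 for stage was 0.033 with upper-quartile normalization and 0.20 with total counts. Total counts moved the median of all genes for stage by 0.20, and Socs2 was then at -0.57. The permutation test of Socs2 for genotype gave an exact p of 0.0370 with total counts. Causes were not tested. Of 128 mean CPM values under other scalings, 20 moved beyond the spread. Of 857 values for 42 fold changes of pathway genes, 169 missed the threshold and none changed sign. Each WT group was 1 library, so its spread was taken from the HD groups.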
